A study of Mus musculus with 8 samples.

Results

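This report describes 41 of the 22873 genes counted in nuclei of the mouse iris. They include genes of the transient receptor potential (TRP) families, the related mucolipin and polycystin-2 genes, the mechanosensitive Piezo genes and the TMC genes. The sodium leak channel *Nalcn* with its subunits *Unc79* and *Unc80* completes them. The rule that selects them uses gene names only. Of the 41 genes, 39 belong to these channel gene families or code for channel subunits. The remaining ones are *Trpc4ap*, which codes for a TRPC4-associated protein, and *Trpc5os*, a transcript on the strand opposite *Trpc5*.

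Single nucleus RNA-seq was performed on 8 libraries, each made from 5 to 6 irises of wild type albino female mice aged 6 to 8 weeks. Irises were either left untreated (3 libraries), constricted with 5% pilocarpine, a muscarinic agonist, in the light (3 libraries), or dilated with 5% phenylephrine, an α1-adrenergic agonist, plus 1% cyclopentolate, a muscarinic antagonist, in the dark (2 libraries). Eye drops were given every hour for 6 hours and eyes were taken at 6.5 hours, so drug and lighting cannot be told apart. The authors assigned the 34357 nuclei to 10 cell types: dilator muscle, sphincter 1 and sphincter 2, iris pigment epithelium (iris PE), ciliary body epithelium (CBE), ciliary body (CB), stroma 1 and stroma 2, leukocytes and endothelial cells (EC). Pieces of ciliary body came along with the iris in varying amounts, and CBE made up 1.503% to 7.59% of a library's nuclei.

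The 8 libraries held 1274 to 7321 nuclei and 5189437 to 25136427 transcripts, counted as unique molecular identifiers (UMIs), with a median of 2775 to 4697.5 UMIs per nucleus. Of 22 marker genes of 7 cell type lists, 19 were highest in the cell type they mark, the exceptions being *Myh11*, *Otx1* and *Pax6*. By summed level, the dilator list and further lists for CBE and sphincter 2 were not highest in their own types. The CBE markers *Zic1*, *Pax6* and *Slc4a4* summed to 1744 to 2219 CPM (counts per 1000000 UMIs) in untreated CBE and to 7636 to 8770 CPM in CB, with *Slc4a4* at 70.0 CPM in CBE and 6338 CPM in CB. The sphincter 2 markers *Chrm3*, *Adra1a* and *Myh11* summed to 3399 to 3910 CPM in sphincter 2 and 6710 to 7285 CPM in sphincter 1. The dilator list (*Adra1a*, *Nos1*, *Myh11*) summed to 2406 to 2832 CPM in untreated dilator muscle and to 2776 to 3413 CPM in sphincter 2. CBE, CB, dilator muscle and the sphincter types are therefore called here only by the names the authors gave. The first untreated and the first dilated library shared 63 nuclear barcodes, 59 of them in the same cell type, while no other pair shared more than 18. Changes with dilation and differences between cell types that passed are given with and without the shared barcodes.

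TRP channels are cation channels assembled from several subunits, and respond to lipids, calcium, temperature or chemical ligands. TRPC channels open downstream of receptors that activate phospholipase C, which include the muscarinic and α1-adrenergic receptors of smooth muscle. Piezo proteins open when the membrane is stretched, NALCN carries a resting sodium leak, and mucolipins reside in endosomes and lysosomes. TRPM1 is best known from retinal ON bipolar cells and from melanocytes, where the *Trpm1* gene was first described as melastatin.

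The 2 members with the most UMIs, not divided by gene length, each carry a microRNA in an intron, on the strand of the host gene. *Trpm1* (chromosome 7, 64153835 to 64269775, plus strand, mm10) holds *Mir211* at chr7:64205806-64205911, and *Trpm3* (chromosome 19, 22139046 to 22995410, plus strand) holds *Mir204* at chr19:22750605-22750672. The mature sequences, from RefSeq on GRCm38.p6, are shown because the pair has the same seed, bases 2 to 8, here in capitals:
mmu-miR-211-5p: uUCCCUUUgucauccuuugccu
mmu-miR-204-5p: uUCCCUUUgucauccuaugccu
Both are 22 bases long and differ by 1 substitution, U17A, counted from the 5′ end with the base of miR-211-5p first. The microRNAs themselves were not measured here, and the values that follow are those of the host genes.

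Levels are given in CPM, the UMIs of a gene per 1000000 UMIs of that cell type in a library, with mean ± SD over the 3 untreated libraries unless stated. Reads from introns were counted, so genes were ranked by level only after division by the length of the gene. The CPM limits, the shares of UMIs and the ratio of *Trpm3* to *Trpm1* were not divided by length. Levels in different cell types were not tested against each other, because the cell types had been assigned from these very counts.

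Over all nuclei the 41 genes took 477599 UMIs, or 0.436% of the total, and 0.376% to 0.504% in single libraries. *Trpm1* and *Trpm3* together held 80.2% of these UMIs. In untreated irises 14 members reached 50 CPM in some cell type with at least 20 UMIs there, 11 peaked between 10 and 50 CPM, and 16 stayed under 10 CPM in every cell type. Among the 14, the untreated libraries of the highest and the next cell type did not overlap for 8 genes and overlapped for 6. No share over all genes stands beside this count, so it does not set the members apart from other genes. Stroma 1 held the highest level of 5 of the 14 (*Mcoln3*, *Piezo1*, *Tmc6*, *Trpm7* and *Trpv2*), and stroma 2 that of 3 (*Nalcn*, *Piezo2* and *Pkd2*). Per 100 kb of gene length over all untreated nuclei, *Trpm1* led with 1623 CPM, followed by *Piezo1* with 255 CPM, *Trpm7* with 232 CPM and *Trpm3* with 188 CPM, the last of which spans 856 kb.

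**Figure D1:**
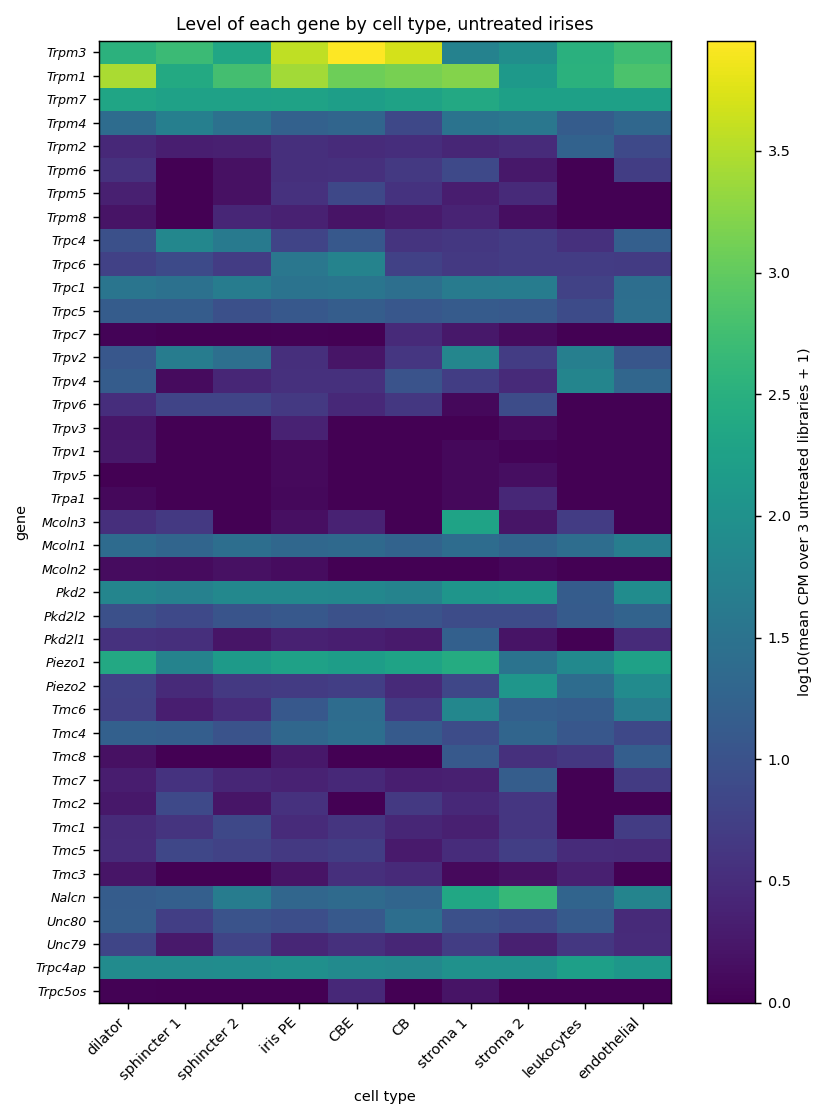
Level of each member (rows) in each of the 10 cell types (columns) in untreated irises, as the log10 of the mean CPM of 3 libraries plus 1. *Trpm3* stood out in CBE, CB and iris PE, and *Nalcn* in both stromal types. *Trpm1* was highest in dilator muscle, iris PE and stroma 1, and was also widespread in CB and CBE.

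Of 8 TRPM genes, *Trpm1*, *Trpm3* and the broadly used *Trpm7* passed 50 CPM. *Trpm3*, which codes for a channel activated by the neurosteroid pregnenolone sulfate, was highest in CBE, with 9352, 7969 and 9596 CPM in the untreated libraries (8972 ± 878 CPM). CB had 5041, 4920 and 5195 CPM and iris PE 4143, 3433 and 3496 CPM, so these 3 types did not overlap one another. In dilator muscle it was at 346 ± 83.6 CPM, and the lowest level was that of stroma 1, at 56.3 ± 5.94 CPM.

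*Trpm1* had another order. Dilator muscle was highest, with 3048, 2789 and 2639 CPM (2825 ± 207 CPM), and iris PE had 2960, 2378 and 2218 CPM, so that these neighbours overlapped. Stroma 1, in which all 5 melanocyte-lineage markers tested (*Sox10*, *Mitf*, *Tyrp1*, *Dct* and *Ednrb*) were at their highest, followed with 1324, 1910 and 1787 CPM. Stroma 2 was lowest, at 130 ± 3.16 CPM. The ratio of *Trpm3* to *Trpm1* UMIs therefore ran from 0.0349 in stroma 1 and 0.121 in dilator muscle over 1.47 in iris PE to 4.03 in CB and 7.93 in CBE. Sphincter 1, at 2.31 (1.48 to 3.81 in single libraries), lay above iris PE, and sphincter 2 had 0.491 (0.248 to 0.935). Stroma 2 and EC had mean ratios of 0.685 and 0.774, beside 0.853 for all nuclei together. The untreated leukocyte libraries ranged from 0.276 to 1.73, the highest being that of 13 nuclei.

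**Figure D2:**
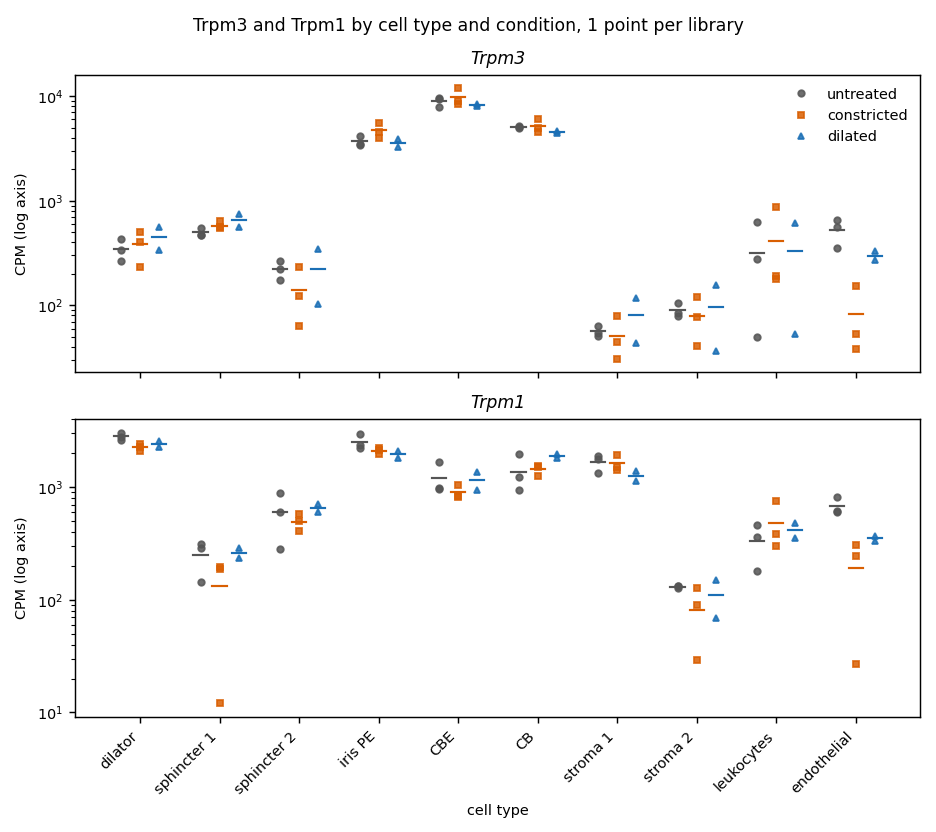
CPM of *Trpm1* and *Trpm3* in each cell type by condition on a log axis, with a point for each library and a dash for the mean of a condition. *Trpm3* was at 7969 CPM or more in CBE in all 8 libraries, and *Trpm1* at 2083 CPM or more in dilator muscle in all 8.

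The share of nuclei with at least 1 UMI followed the same order in the types named here, once depth was made equal. Nuclei were thinned to 1000 UMIs each, which left out 229 of 14365 untreated nuclei with fewer UMIs. *Trpm3* was then seen in 99.5% of CBE nuclei, 98.8% of CB nuclei and 92.3% of iris PE nuclei, against 5.94% in stroma 1 (100%, 99.7%, 99.0% and 13.8% before thinning). *Trpm1* was seen in 88.5% of dilator muscle, 85.7% of iris PE and 74.4% of stroma 1 nuclei, against 12.1% in stroma 2 (98.4%, 97.9%, 91.6% and 25.9% before thinning). It was also seen in 69.6% of CB and 59.9% of CBE nuclei (93.6% and 89.8% before thinning, CB then being above stroma 1). Median UMIs per nucleus in the untreated libraries were 3344.5 to 3926 in dilator muscle, 3154.5 to 3710 in CBE, 2624 to 3113 in stroma 1 and 2381 to 2999 in stroma 2.

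*Trpm7*, which codes for a channel fused to a kinase, was the most even of the abundant members. It was highest in stroma 1, with 265, 230 and 224 CPM (240 ± 22.6 CPM), and lowest in CBE, at 166 CPM. *Trpm4*, a calcium-activated monovalent cation channel of smooth muscle, peaked just under the limit, in sphincter 1 at 49.2 CPM. The cold receptor gene *Trpm8* did not exceed 1.68 CPM in any cell type.

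Both Piezo genes passed 50 CPM, in different cell types. *Piezo1* (chromosome 8, 122481698 to 122551329, minus strand) was highest in stroma 1, with 260, 275 and 270 CPM, and dilator muscle overlapped it with 266, 231 and 236 CPM. Its lowest level was in stroma 2, at 30.6 ± 2.02 CPM. *Piezo2*, the main mechanosensor of touch and proprioceptive neurons, had the reverse pattern in the stroma: 145, 109 and 105 CPM in stroma 2 (120 ± 22.2 CPM) and 5.96 ± 4.38 CPM in stroma 1. EC had the next highest *Piezo2* level, at 80.7 ± 19.2 CPM, while dilator muscle, both sphincters, iris PE, CBE and CB lay between 1.93 and 4.80 CPM.

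*Nalcn* (chromosome 14, 123276634 to 123627144, minus strand, 351 kb) was a stromal gene in untreated irises. Stroma 2 had 447, 436 and 470 CPM (451 ± 17.7 CPM) and stroma 1 had 253, 214 and 211 CPM (226 ± 23.3 CPM), with no overlap. The lowest level was in dilator muscle, at 13.02 ± 2.88 CPM. After thinning, 34.3% of stroma 2 and 19.7% of stroma 1 nuclei held a *Nalcn* UMI (56.7% and 37.2% before), against 0.54% to 3.52% in the other types. The subunit genes did not share this pattern: *Unc80* peaked in CB at 25.9 CPM and *Unc79* in dilator muscle at 5.71 CPM.

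*Mcoln3* (chromosome 3, 146117450 to 146141806, plus strand), a mucolipin gene known for the deafness and coat colour defects of varitint-waddler mice, was almost limited to stroma 1. The untreated libraries had 154, 225 and 198 CPM there (192 ± 35.6 CPM, 714 UMIs). No *Mcoln3* UMI was counted in untreated CB, EC or sphincter 2, where a count of 0 allows up to 2.61, 7.82 and 2.37 CPM. Thinned nuclei held it in 17.6% of stroma 1 and in at most 0.56% of any other type. *Pkd2*, which codes for the polycystin-2 of renal cilia, had less of a contrast, with 141, 127 and 119 CPM in stroma 2 (129 ± 11.5 CPM) and 114 ± 1.05 CPM in stroma 1, and was lowest in leukocytes at 13.3 CPM.

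**Figure D3:**
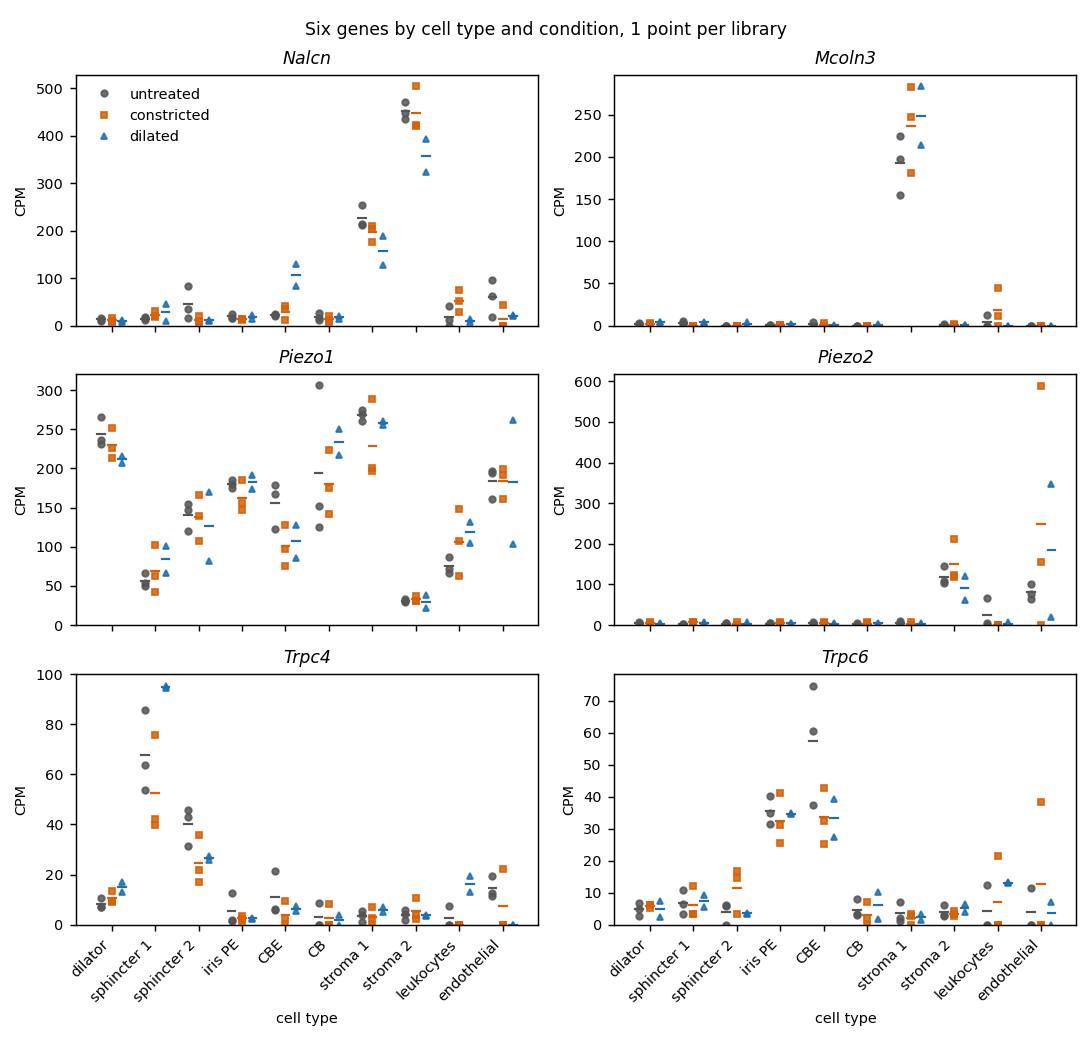
CPM of *Nalcn*, *Mcoln3*, *Piezo1*, *Piezo2*, *Trpc4* and *Trpc6* in each cell type by condition, with a point for each library and a dash for the mean of a condition. *Nalcn* rose in CBE of both dilated libraries, and *Mcoln3* was at 154 CPM or more in stroma 1 of every library.

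Of 5 TRPC genes described, *Trpc4* and *Trpc6* passed 50 CPM, each in another cell type. *Trpc4* (chromosome 3, 54156035 to 54318471, plus strand), which with *Trpc6* carries muscarinic cation currents in intestinal smooth muscle, was highest in sphincter 1 with 53.8, 63.8 and 85.8 CPM. Sphincter 2 followed with 45.8, 31.2 and 43.0 CPM, below sphincter 1 in all libraries, and dilator muscle had 8.15 ± 2.12 CPM. *Trpc6* was highest in CBE with 74.7, 60.5 and 37.4 CPM (57.6 ± 18.8 CPM), and iris PE had a mean of 35.5 CPM. The highest iris PE library, at 40.1 CPM, overlapped CBE. *Trpc4ap* was widespread, with 199, 171 and 142 CPM in leukocytes and 121 CPM in EC, and was lowest in CB at 68.6 CPM.

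Among the 6 TRPV genes, *Trpv2* and the osmosensitive *Trpv4* passed 50 CPM. *Trpv2* had 77.1, 57.8 and 57.9 CPM in stroma 1, overlapping leukocytes at 50.7 ± 49.6 CPM. *Trpv4* had 99.3, 34.1 and 49.5 CPM in leukocytes, from 20 UMIs in all, so its level there is uncertain. The heat and capsaicin receptor gene *Trpv1* reached at most 0.77 CPM and the irritant receptor gene *Trpa1* 1.76 CPM. Of the 8 TMC genes only *Tmc6* passed, with 68.2, 72.5 and 62.2 CPM in stroma 1, while the hair cell genes *Tmc1* and *Tmc2* reached at most 6.11 and 6.44 CPM.

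The drug treatments were compared on UMIs summed per library and cell type, with edgeR's quasi-likelihood test over all genes. A gene was counted as changed when its log2 fold change exceeded 0.6 in size with a Benjamini-Hochberg adjusted p under 0.05. Enough counts were present to test 30 members in some cell type, in 138 pairs of a member and a cell type for each comparison, and 11 members were never tested. The comparisons share libraries and are not independent.

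With dilation, 2 of 138 pairs changed against untreated irises, both upward, while 3.34% of all 85092 pairs of a gene and a cell type changed. Against constricted irises none changed by edgeR or DESeq2, with 13 of 138 at an unadjusted p under 0.05 in edgeR and a background of 2.65%. With constriction none changed against untreated irises by edgeR, with 9 of 138 at an unadjusted p under 0.05 and 1 pair past the thresholds with DESeq2. The background of that comparison was 0.0118% of pairs. The members' share was no higher than that of all genes in the dilated comparisons.

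*Nalcn* rose in CBE with dilation. The untreated libraries had 21.4, 20.8 and 25.0 CPM there (6, 11 and 12 UMIs), the constricted libraries 34.8, 40.5 and 12.2 CPM (15, 16 and 2 UMIs), and the dilated libraries 83.9 and 131 CPM (175 and 53 UMIs). Both dilated libraries were above all the others. The log2 fold change against untreated was 2.22 (SE 0.345, edgeR adjusted p = 0.0160), and *Nalcn* was the only gene called of 8166 tested in CBE, a background of 0.0122%. Against constricted irises the log2 fold change was 1.65 (edgeR adjusted p = 0.0649) and did not pass. It passed with the series of library numbers as a term (1.81, edgeR adjusted p = 0.0477). The first replicates of all conditions formed a series, constricted replicate 2 was alone in its series, and the other libraries formed the last. With that term constricted replicate 2, the highest constricted library here at 40.5 CPM, no longer counted in the comparison.

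The rise in CBE was seen within both series that held dilated and untreated libraries, with dilated over untreated ratios of 3.93 and 5.71. It was also seen without the shared barcodes (log2 fold change 2.15, edgeR adjusted p = 0.0304). The call was lost without any of the 3 untreated libraries in turn, at log2 fold changes of 2.19, 2.16 and 2.32 and edgeR adjusted p-values of 0.0797, 0.439 and 0.276. After thinning, CBE nuclei with a *Nalcn* UMI made up 1.28%, 0% and 0.741% of the untreated, 1.64%, 1.41% and 0% of the constricted, and 7.80% and 6.72% of the dilated libraries. *Nalcn* was abundant in stroma 2, whose markers *Tfap2b* and *Pdgfra* summed to 7.12 to 28.4 CPM in untreated CBE and to 16.3 and 9.86 CPM in dilated CBE. The stroma 1 markers summed to 1963 to 2613 CPM in untreated and to 3464 and 2242 CPM in dilated CBE, of which *Sox10* was at most 4.2 CPM in either condition. In stroma 1, stroma 2, iris PE and dilator muscle *Nalcn* did not pass, with log2 fold changes from -0.49 to 0.07.

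*Trpc4* rose in dilator muscle with dilation, from a low level. The untreated libraries had 10.6, 6.9 and 7.0 CPM, the constricted libraries 13.4, 8.9 and 9.5 CPM, and the dilated libraries 17.1 and 13.02 CPM, from 110, 129 and 238 UMIs in all. Dilated libraries lay above the untreated ones and overlapped the constricted ones, against which the log2 fold change was 0.66 (edgeR adjusted p = 0.116). The log2 fold change against untreated was 1.15 (SE 0.256, edgeR adjusted p = 0.00996), in a cell type where 13.3% of 15395 genes changed. With the library total in place of TMM scaling, which shifted the median of all genes in dilator muscle by -0.177, it was 0.98 (edgeR adjusted p = 0.0328), and without the shared barcodes 1.14 (edgeR adjusted p = 0.0119). The call was lost without untreated replicate 2 or 3 (log2 fold change 1.07 for both, edgeR adjusted p = 0.0644 and 0.0653) and without the first dilated library (1.02, edgeR adjusted p = 0.0912). After thinning, dilator muscle nuclei with a *Trpc4* UMI made up 1.75%, 0.725% and 0.645% in the untreated and 1.52% and 1.07% in the dilated libraries. The constricted libraries had 0.932%, 0.937% and 0.449%. By this share the untreated and dilated libraries overlapped, untreated replicate 1 being above both dilated ones. The sphincter 1 markers *Chrm3*, *Ttn* and *Syt1* summed to 64.7 to 76.7 CPM in untreated and 63.5 and 61.1 CPM in dilated dilator muscle.

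**Figure D4:**
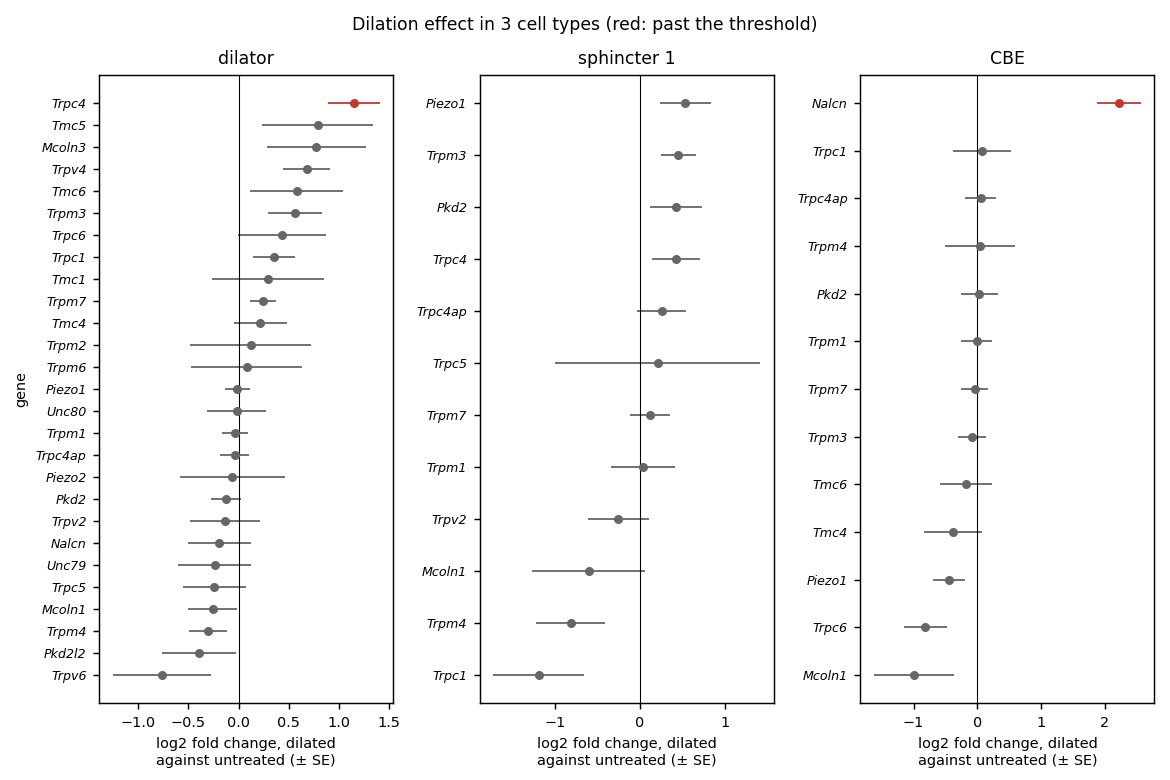
Log2 fold change of dilated against untreated irises for each member tested in dilator muscle, sphincter 1 and CBE, with SE bars from the edgeR fit and the calls in red. Calls were *Trpc4* in dilator muscle (1.15) and *Nalcn* in CBE (2.22), and none of the 12 members shown in sphincter 1 passed.

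None of the other members described here passed in any cell type by edgeR with all 8 libraries, the filter on low counts and no further terms. In dilator muscle the median log2 fold change of the 27 members tested with dilation was -0.01 and the median size 0.24, against 0.02 and 0.33 for all genes. *Trpm1* in dilator muscle had 2431, 2290 and 2083 CPM in constricted and 2545 and 2277 CPM in dilated libraries, all below the untreated range, with log2 fold changes of -0.30 and -0.04 after TMM scaling. *Trpm3* in CBE had 9070, 11961 and 8512 CPM in constricted and 8363 and 8002 CPM in dilated libraries, which overlapped the untreated ones. *Mcoln3* in stroma 1 had 247, 181 and 283 CPM in constricted and 214 and 283 CPM in dilated libraries, and overlapped as well. Among members not called, *Trpv4* in dilator muscle had a log2 fold change of 0.68 with dilation (edgeR adjusted p = 0.0775), with 20.9 and 17.8 CPM in dilated and 11.8 to 15.9 CPM in untreated libraries. With the library number series as a term it passed (0.74, edgeR adjusted p = 0.0160), as did *Trpm4* in stroma 1 (-1.31, edgeR adjusted p = 0.0482) and *Trpc1* in stroma 2 (0.65, edgeR adjusted p = 0.0299). Calls over all genes rose with that term from 2840 to 5335. Without that term *Trpm4* in stroma 1 had a log2 fold change of -1.36 (edgeR adjusted p = 0.0837), with 12.5 and 11.7 CPM against 25.1 to 35.9 CPM. In sphincter 1 the same gene had 42.8, 109 and 89.6 CPM in constricted and 38.2 and 20.8 CPM in dilated libraries (log2 fold change -1.39, edgeR adjusted p = 0.0775). *Trpm3* in EC had a log2 fold change of -2.53 with constriction (edgeR adjusted p = 0.0890) and passed with DESeq2 (-2.61, DESeq2 adjusted p = 0.0297). Without the filter on low counts it passed by edgeR (-2.78, edgeR adjusted p = 1.62e-04), as did *Trpm1* in EC (-2.13, edgeR adjusted p = 0.00227). EC had as few as 12 nuclei in a library. Also without the filter, *Trpm1* in sphincter 1 passed in dilated against constricted irises (0.90, edgeR adjusted p = 0.0376).

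The stromal members did not pass the edgeR test. *Piezo1* in stroma 1 had 201, 196 and 289 CPM in constricted and 256 and 260 CPM in dilated libraries, and *Piezo2* in stroma 2 had 124, 211 and 119 CPM and 120 and 60.7 CPM. *Nalcn* in stroma 2 had 503, 422 and 420 CPM in constricted and 392.4 and 322 CPM in dilated libraries, the latter below all of the other 6. *Trpm7* in stroma 1 had 257, 281 and 239 CPM in constricted and 248 and 198 CPM in dilated libraries, around its untreated range. In the same cell type *Tmc6* had 85.8, 77.5 and 77.0 CPM in constricted libraries, above all untreated and dilated ones, and 75.1 and 65.0 CPM in dilated libraries. *Trpv2* there had 56.6, 49.1 and 65.5 CPM and 41.7 and 76.7 CPM. *Pkd2* in stroma 2 had 125, 128 and 140 CPM in constricted and 138 and 169 CPM in dilated libraries.

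*Trpc4* in sphincter 1, its highest cell type, had 75.7, 42.4 and 39.8 CPM in constricted and 95.4 and 94.6 CPM in dilated libraries. The dilated libraries were above the other 6, but the log2 fold change against untreated irises was 0.42 (edgeR adjusted p = 0.678). *Trpc6* in CBE had 32.5, 25.3 and 42.7 CPM in constricted and 27.3 and 39.4 CPM in dilated libraries, overlapping only the lowest untreated library. In leukocytes *Trpv4* had 64.7, 104 and 83.5 CPM in constricted and 32.6 and 92.5 CPM in dilated libraries, and *Trpc4ap* had 119, 88.7 and 52.2 CPM and 176 and 159 CPM, from as few as 13 nuclei in a library.

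The dilation effect in dilator muscle was then tested against that in each of the other 9 cell types, with library as a term and 18 to 31 members tested in each fit. Among all genes 5.07% of the pairs differed, and among the members 4 pairs did. *Nalcn* differed from CBE by -2.34 (SE 0.392, edgeR adjusted p = 2.19e-06), where 4.18% of genes did. *Trpc1* differed from sphincter 1 by 1.55 (SE 0.476, edgeR adjusted p = 0.0275), where 6.71% of genes did, although it was called in neither cell type alone. *Trpm3* differed from CBE by 0.62 (edgeR adjusted p = 0.0331) and from iris PE by 0.52 (edgeR adjusted p = 0.0288), where 12.2% of genes did.

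Proteins that bind or regulate these channels were covered by a list of 28 genes, of which 27 were in the files. With dilation 4 of 118 tested pairs of these genes and a cell type changed, near the 3.34% of all pairs. All 4 were in dilator muscle, where 22 of these genes were tested and 13.3% of all genes changed. *Homer1*, a scaffold that ties TRPC channels to inositol trisphosphate receptors, rose from 36.2, 27.6 and 27.4 CPM to 109 and 170 CPM (log2 fold change 2.44, edgeR adjusted p = 5.22e-05). *Stim1*, the calcium sensor of the endoplasmic reticulum, fell from 338, 296 and 303 CPM to 174 and 161 CPM (-0.71, edgeR adjusted p = 0.00319), while the store-operated channel gene *Orai1* rose from 38.0, 29.8 and 34.6 CPM to 65.2 and 47.3 CPM (0.92, edgeR adjusted p = 0.00319). *Pirt*, a membrane protein that binds TRPV1 and TRPM8, fell from 7.5, 11.0 and 9.5 CPM to 3.1 and 1.6 CPM (-1.81, edgeR adjusted p = 0.00868). The same 4 genes passed in dilator muscle against constricted irises, which share the dilated libraries and where 10.5% of genes changed, with log2 fold changes of 2.18, -0.90, 0.71 and -1.37, and none passed with constriction. The dilator markers *Adra1a*, *Nos1* and *Myh11* together went from 2406 to 2832 CPM in untreated to 1623 and 1583 CPM in dilated dilator muscle.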

How the data were processed

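The deposited matrices hold UMI counts per gene and nucleus, not normalized, made by the authors with Cell Ranger 3.1.0 on an mm10 index that includes introns. The authors removed nuclei with over 1% mitochondrial transcripts or too few or too many genes and clustered the rest with Seurat. They assigned cell types to the clusters by immunostaining and in situ hybridization, and those names were used. The UMIs of all nuclei of a cell type in a library were added up, and these sums were tested with edgeR 4.0.16 (R 4.3.3; TMM, filterByExpr, quasi-likelihood, two-sided, all 8 libraries in 1 fit per cell type). Nuclei were not used as replicates, and the p-values measure only the spread between libraries. Names follow GEO labels. Values in every library are given for members of at least 50 CPM with 20 UMIs in the cell type where they are highest and for members called. A count of 0 allows 3 counts over the untreated libraries. Such limits cover counting error only. Doublets were marked with Scrublet (scanpy 1.11.5; 0.0785% to 1.37% of a library) and left out only as an alternative. *Trpm1*, *Trpm3*, *Nalcn*, *Piezo1*, *Piezo2* and *Trpc4ap* overlap another annotated gene on the same strand, whose reads cannot be told apart there. The same holds for *Tmc4*, *Trpc5*, *Unc79* and *Trpm2*, which stayed under 50 CPM. The fit was tested on simulated data. Members and lists were chosen with earlier results of these data known. *Fam155b* was not analysed here. Of 42 genes that met the naming rule 1 is not reported here, nor is 1 marker gene, and all counts of members and markers leave them out. The labels do not give which of 5 processing batches and 2 sequencing runs a library belongs to. Other scalings, filters, DESeq2 1.42.0, a replicate block, the library number series, doublets, shared barcodes and each library left out were tried, the shared barcodes and the library total after seeing the data.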

Additional observations from a re-analysis of the deposited data

Results flagged for a closer look

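The effect of dilation differed between dilator muscle and another cell type for 3 members in 4 tests of the difference itself, by edgeR's quasi-likelihood test with library as a term. Against each of 9 cell types 18 to 31 members were tested, and 5.07% of all tested pairs of a gene and a cell type differed. The values are the log2 effect in dilator muscle minus that in the other type. *Nalcn* gave -2.34 against CBE (edgeR adjusted p = 2.19e-06) and passed without each of the 8 libraries and without the shared barcodes (-2.27, edgeR adjusted p = 1.27e-05).

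*Trpc1* gave 1.55 against sphincter 1 (edgeR adjusted p = 0.0275), and 1.54 without the shared barcodes (edgeR adjusted p = 0.0303). Its dilator muscle libraries had 27.4, 37.2 and 35.8 CPM untreated and 34.9 and 42.3 CPM dilated, and its sphincter 1 libraries 10.8, 46.2 and 28.9 CPM and 16.4 and 11.5 CPM, so the groups overlapped in both. It was lost without the second untreated (1.18, edgeR adjusted p = 0.315), the third untreated (1.64, edgeR adjusted p = 0.0827) or the second dilated library (1.12, edgeR adjusted p = 0.462).

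*Trpm3* gave 0.52 against iris PE (edgeR adjusted p = 0.0288) and 0.62 against CBE (edgeR adjusted p = 0.0331), and without the shared barcodes 0.52 (edgeR adjusted p = 0.0298) and 0.60 (edgeR adjusted p = 0.0209). Dilator muscle had 434, 336 and 268 CPM untreated and 560 and 336 CPM dilated, with the highest value in the first dilated library, in which CBE nuclei made up 7.59%. In stroma 1, where *Trpm3* was lowest, that library had 118 CPM against 31.0 to 78.9 CPM in the other 7. The part of the CBE share in these differences was not tested. Both were lost without the first dilated library (0.31, edgeR adjusted p = 0.328, and 0.34, edgeR adjusted p = 0.575), without the second untreated library (0.58, edgeR adjusted p = 0.0515, and 0.69, edgeR adjusted p = 0.0823) and without the third untreated library (0.38, edgeR adjusted p = 0.187, and 0.36, edgeR adjusted p = 0.544), and that against CBE also without doublets (0.51, edgeR adjusted p = 0.0958). With the library total in place of TMM, *Trpc1* (1.39, edgeR adjusted p = 0.0610) and *Trpm3* (0.40, edgeR adjusted p = 0.0959, and 0.49, edgeR adjusted p = 0.0937) did not pass.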

How the results depend on the processing

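No result changed direction under the alternatives run. Calls over all genes moved with the setting too. Dilated against untreated irises had 2840 such calls, 5335 with the library number series as a term and 3681 with a replicate block. Constricted against untreated irises had 10, 299 without the filter on low counts and 73 with DESeq2. Dilated against constricted irises had 2258, 3238 without the filter, 3324 with the series and 2945 with the block. The counts of members below are to be read beside these. Counts of members changed with dilation against untreated irises (2) were 5 with the library number series as a term (*Trpv4* in dilator muscle, *Trpm4* in stroma 1 and *Trpc1* in stroma 2 gained) and 0 to 2 with a library left out. With constriction (0) they were 2 without the filter on low counts, 1 with DESeq2 and 0 to 2 with a library left out. Dilated against constricted (0) gave 2 without the filter, 2 with the series (*Nalcn* in CBE and *Trpm3* in dilator muscle) and 0 to 1 with a library left out. The replicate numbers alone do not pair the libraries. The deviations of constricted and dilated replicate 2 correlated at -0.033 and those of constricted and untreated replicate 2 at -0.015. The other pairs of the same replicate number also shared a library number series, and correlated at 0.186 to 0.426. Libraries of the same number series but different condition correlated at 0.182 to 0.426. Deviations were taken from the condition mean, so those of the 2 dilated libraries mirror each other. Their correlations with any other library differ only in sign, and the values are not separate tests. With a replicate block the counts were 3 for dilated against untreated, *Trpv4* in dilator muscle being gained (adjusted p = 0.0466), and 1 (*Nalcn* in CBE) for dilated against constricted irises. Pairs of a member and a cell type whose dilation effect differed from that in dilator muscle (4) were 10 without the filter and 2 with the library total, and 1 to 9 with a library left out. Of the 14 members described by library, 13 were highest in the same cell type over all 8 libraries, where *Piezo2* was highest in EC, and 13 to 14 with an untreated library left out, *Trpv2* being highest in leukocytes without untreated replicate 1. The cell type with the highest share of nuclei was that with the highest level for 11 of the 14 with 1000 UMIs per nucleus and 8 with 500. The cause of these changes was not tested. Leukocytes and EC, with as few as 13 and 12 nuclei in a library, limit what could be tested there.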
